A study of Mus musculus with 2 samples.

Results

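The genes described here are 10 genes that respond to bone morphogenetic proteins (BMPs): Id1, Id2, Id3, Id4, Smad6, Smad7, Bambi, Msx1, Msx2 and Atoh8. They were chosen by name, and each was matched by 1 probe, so that they account for 10 of 39429 probes on the array. Of the 10 genes, 9 gave a signal that could be tested and Bambi did not.

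The RNA came from ureters dissected from NMRI mouse embryos at stage E13.5 and was compared on 2 two-colour Agilent arrays, each holding a mutant and a control pool. Mutant embryos were Pax2-cre/+ with 2 floxed alleles of Fgfr2 and at least 1 floxed allele of Fgfr1. The genotype given for control embryos lists no cre and at least 1 floxed allele of each receptor gene. The other allele of Fgfr1 is labelled as floxed or wild type, so a mutant pool could hold ureters with either genotype. How many embryos went into a pool is not stated here. Pax2 is a transcription factor of the nephric duct and its derivatives, the lineage that forms the ureteric epithelium. The female pools were on array 1, where Cy5 marked the mutant, and the male pools on array 2, where Cy3 did. Sex, dye orientation and array therefore changed together and cannot be told apart. All ratios are log2 mutant over control, given for each array or as a mean with its SD over n = 2 arrays. The p-values rest only on spread between these 2 arrays, that of the gene weighed with that of all genes.

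BMPs bind pairs of serine/threonine kinase receptors, which phosphorylate SMAD1, SMAD5 and SMAD9. These enter the nucleus with SMAD4 and switch on a small set of genes in many cell types. ID proteins bind E proteins and keep them off DNA, SMAD6 and SMAD7 block receptor signalling, and BAMBI is a receptor-like protein without a kinase domain. MSX1 and MSX2 are homeobox repressors, and ATOH8 is a basic helix-loop-helix factor. In the embryonic ureter, BMP4 made by the mesenchyme is known for its part in smooth muscle development. Several of these genes also respond to other signals, among them TGF-beta for Smad7 and serum for Id1 and Id3.

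In each channel, 67.8% to 77.0% of the probes gave signal well above background. Saturated spots numbered 0, and limma was run on 20909 genes. At a Benjamini-Hochberg adjusted p of 0.05, 6 genes (0.0287%) were called, all 6 higher in the mutant. The brighter Fgfr2 probe had ratios of 0.27 and 0.06 and the other 0.08 and 0.09. The 3 Fgfr1 probes gave 0.27 and -0.44, 0.03 and 0.51, and 0.17 and -0.16. Whether any of these probes lies within a floxed segment is unknown here, and a probe outside it checks nothing. Xist, an RNA made from the silenced X chromosome of females, was on array 2 at 5.26% of its female level in the mutant pool but 17.8% in the control pool, where male embryos should have next to none. Of the Y-linked genes, Ddx3y had a level of 11.88 in the mutant and 11.57 in the control pool labelled male, and Eif2s3y 11.22 and 11.52, against 8.15 to 8.44 for Ddx3y and 8.27 to 8.41 for Eif2s3y in the female pools. Both pools labelled male thus had high Y-linked levels, and whether the control pool also held RNA of female ureters, and the part of this in the values of array 2, was not tested.

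To show upstream sequences of Id2, Id4 and Id3, the 250 bases before their start sites were read from RefSeq (GRCm38.p6, gene strand). This set was chosen after the values were seen, because Id2 and Id4 had the same signs on the arrays and Id3 had others. Id1 shared the signs of Id2 and Id4, but its promoter was not read. Capitals mark GGCGCC, a GC-rich element bound by BMP-activated SMADs, and GTCTG, which holds the SMAD-binding letters GTCT. Both were searched on both strands, so that GTCTG can read CAGAC.
Id2, chr12:25096093-25096342, minus strand: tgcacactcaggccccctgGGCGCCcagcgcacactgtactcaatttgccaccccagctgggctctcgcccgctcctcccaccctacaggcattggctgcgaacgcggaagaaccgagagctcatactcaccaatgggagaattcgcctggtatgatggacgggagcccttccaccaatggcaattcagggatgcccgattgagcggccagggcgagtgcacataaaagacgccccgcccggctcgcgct
Id4, chr13:48260866-48261115, plus strand: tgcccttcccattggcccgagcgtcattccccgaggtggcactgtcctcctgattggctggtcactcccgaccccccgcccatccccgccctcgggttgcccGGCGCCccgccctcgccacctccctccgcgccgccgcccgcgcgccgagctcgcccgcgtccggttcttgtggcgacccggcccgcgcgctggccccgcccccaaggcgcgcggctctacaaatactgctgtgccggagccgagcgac
Id3, chr4:136143572-136143821, plus strand: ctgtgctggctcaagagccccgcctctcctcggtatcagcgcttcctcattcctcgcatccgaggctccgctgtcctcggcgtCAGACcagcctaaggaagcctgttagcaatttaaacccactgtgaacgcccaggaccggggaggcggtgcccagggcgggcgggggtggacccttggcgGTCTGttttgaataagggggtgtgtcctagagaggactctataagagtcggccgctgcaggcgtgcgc

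GGCGCC began 231 bases before the start of Id2 and 148 bases before that of Id4. Id3 had no GGCGCC and held GTCTG at 167 and 68 bases before its start. Of 32851 promoters with a window of this length, 9.59% held GGCGCC and 42.2% held GTCTG. The promoters of 7 of the 10 genes were read, all but those of Id1, Smad7 and Bambi. GGCGCC was in 2 of the 7 and GTCTG in 1. The E-box CANNTG, the kind of site bound by E proteins, was in 4 of the 7, those of Id2, Msx1, Msx2 and Atoh8, against 66.2% of all promoters. Such matches describe these letters only.

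None of the 4 Id genes passed the test over both arrays, and 3 of them had opposite signs on the arrays. The Id1 probe (mm9, chr2:152563083-152563142) gave normalised log2 levels of 13.43 in the mutant and 13.64 in the control pool of array 1. On array 2 it gave 13.72 and 13.35. The mutant was thus the lower pool among females and the higher among males, with ratios of -0.22 and 0.36.

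Id2 (chr12:25778904-25778963) was at 14.85 for mutant RNA and 15.12 for control RNA on array 1, and at 15.31 and 15.01 on array 2. Its ratios were -0.27 and 0.30. Id4 (chr13:48358668-48358727) was at 11.78 and 12.19 on array 1 and at 12.51 and 12.20 on array 2, with ratios of -0.40 and 0.30. For Id1, Id2 and Id4 alike, the mutant and control ranges overlapped.

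Id3 (chr4:135700075-135700249) was the exception. Its levels lay close together, at 14.43 for mutant RNA and 14.45 for control RNA on array 1 and at 14.28 and 14.46 on array 2. The ratios were -0.02 and -0.19. Its 60-base probe spans 175 bases of the mm9 genome, 115 more than its own length, as a probe laid across a splice junction would, though no mm9 gene models were used here to place it.
Id3 probe: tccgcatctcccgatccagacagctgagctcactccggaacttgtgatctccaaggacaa

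The mean ratios were 0.07 ± 0.41 for Id1, 0.01 ± 0.41 for Id2, -0.11 ± 0.11 for Id3 and -0.05 ± 0.50 for Id4. In limma their unadjusted p ran from 0.505 for Id3 to 0.939 for Id2, and the adjusted p of each was 0.99997. The 95% intervals of the mean were -0.35 to 0.50 for Id1, -0.41 to 0.44 for Id2, -0.46 to 0.25 for Id3 and -0.51 to 0.41 for Id4. With 2 arrays, mean ratios within these bounds cannot be told apart. A direction for the Id genes was not stable to scaling either. After median centring in place of the intensity-dependent loess, the means were -0.09, -0.17, -0.27 and -0.21, so that Id1 and Id2 changed sign. Over all genes that scaling gave medians of -0.06 on array 1 and -0.08 on array 2. Id2 also changed sign with the processed signals, at -0.00049.

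**Figure D1:**
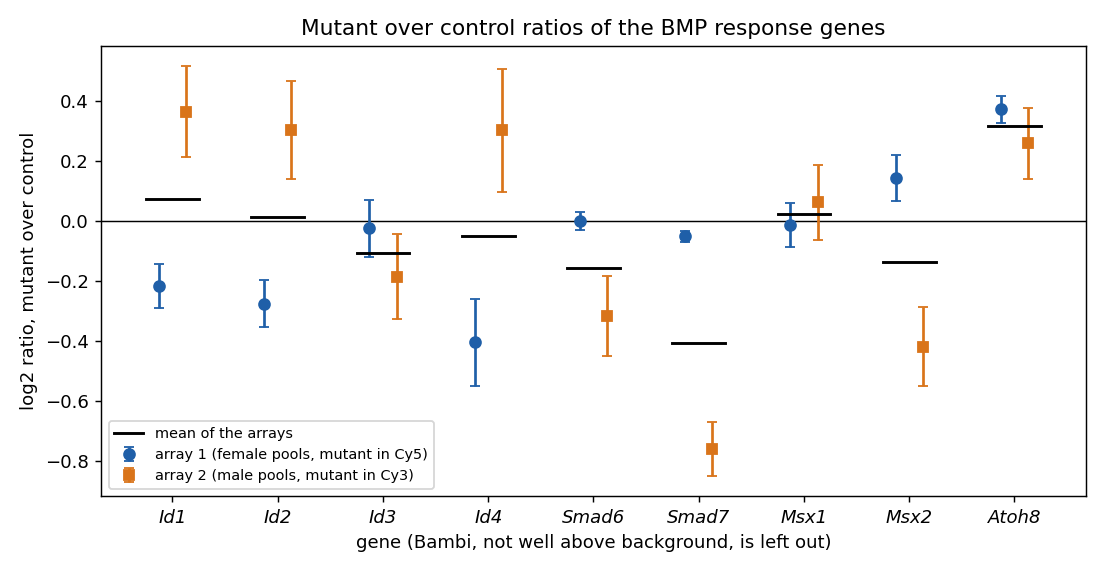
Log2 ratio of mutant over control for each of the 9 genes tested on array 1 (circles) and array 2 (squares), with the SD over the 3 or 4 spots of the probe on that array as error bars and the mean of the arrays as a black line. Id1, Id2 and Id4 lie below 0 on array 1 and above 0 on array 2, while Atoh8 lies above 0 on both and Smad7 is far below 0 on array 2 alone.

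Each probe was printed 4 times per array, and the SD of the ratio over the spots of Id1, Id2 and Id4 ran from 0.073 to 0.144 on array 1 and from 0.151 to 0.205 on array 2. The arrays differed by 0.578 for Id1, 0.578 for Id2 and 0.706 for Id4. The spots of 1 array carry no variation between pools, so their SD does not bear on whether the pools differ. Of all genes, 56.5% had opposite signs of any size, 28.7% with array 1 lower. Read as Cy5 over Cy3, without turning array 2, Id1 was at -0.22 and -0.36, Id2 at -0.27 and -0.30 and Id4 at -0.40 and -0.30. The Cy5 channel was thus the lower one on both arrays for these 3 genes. A limma fit of these unturned ratios, chosen after seeing the data, called 0 of 20909 genes, with 985 (4.71%) at an unadjusted p under 0.05, among them Id2 and Id4. It gave unadjusted p of 0.0584 for Id1, 0.0494 for Id2 and 0.0299 for Id4 (adjusted p = 0.747 each). With 1 array in each orientation, that fit has no replicate within a sex or a dye, and its residual is the mutant effect itself, which is small in genes picked for opposite signs.

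**Figure D2:**
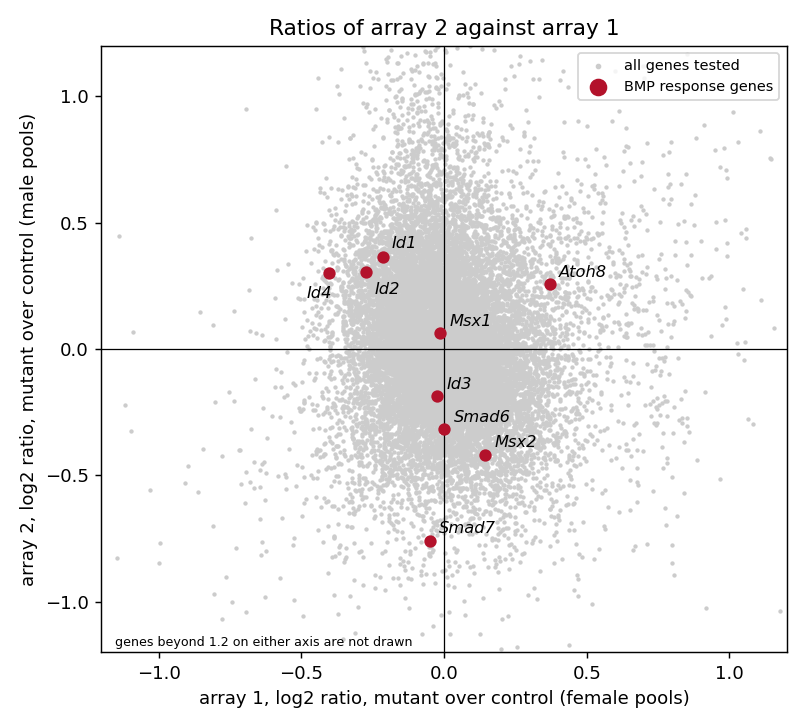
Log2 mutant over control on array 2 (vertical) against array 1 (horizontal) for all genes tested (grey) and for the 9 BMP response genes tested (red). Id1, Id2 and Id4 sit together at upper left, with array 1 between -0.40 and -0.22 and array 2 between 0.30 and 0.36, and Atoh8 is the only 1 of the 9 at upper right.

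The inhibitory SMAD genes had ratios near 0 on array 1 and below 0 on array 2, and neither passed the test. Smad7, on chromosome 18, was at 11.44 for mutant RNA and 11.49 for control RNA on array 1 and at 10.65 and 11.41 on array 2. The ratios were -0.05 and -0.76, so that a 1.69-fold difference stood on the male array against a 1.04-fold one on the female array. The 2 control pools of Smad7 differed by 0.08, and the mutant male pool alone was low, 0.79 below the mutant female pool. The SD over the spots of its probe was 0.019 on array 1, with 3 spots, and 0.090 on array 2.

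Smad6 (chr9:63800980-63801039) was at 12.04 in both pools of array 1, and at 11.76 for mutant RNA and 12.08 for control RNA on array 2. Its ratios were 0.0018 and -0.32. In this gene too the mutant male pool was the lowest of the 4, and the other pools lay within 0.04 of each other.

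The means were -0.40 ± 0.50 for Smad7 and -0.16 ± 0.22 for Smad6, and neither passed in limma (unadjusted p = 0.0774 and 0.353, adjusted p = 0.99997 for both). The 95% intervals were -0.87 to 0.06 for Smad7 and -0.53 to 0.21 for Smad6. Of all genes tested, 1.33% had a lower mean ratio than Smad7. Without array 2 the value of Smad7 was -0.05 and that of Smad6 0.0018, so both means were set mainly by array 2.

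Bambi, also on chromosome 18, was not well above background. In the mutant pool of array 2, 3 of 4 spots were, and in the other 3 pools 0 of 4 were. The levels were 6.30 in both pools of array 1 and 6.37 and 6.26 on array 2. With both groups at background on array 1 no ratio is given, and the test left it out.

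Both Msx genes had opposite signs on the arrays, Msx1 with small ratios and Msx2 with larger ones. Msx1 (chr5:38212305-38212364) was at 7.48 for mutant RNA and 7.49 for control RNA on array 1 and at 7.81 and 7.75 on array 2, with ratios of -0.01 and 0.06. Msx2 (chr13:53562318-53562377) was at 7.90 and 7.76 on array 1 and at 7.58 and 8.001 on array 2, with ratios of 0.14 and -0.42. The Msx2 pools overlapped, with the mutant highest among females and lowest among males. The means were 0.02 ± 0.05 for Msx1 and -0.14 ± 0.40 for Msx2 (limma unadjusted p = 0.871 and 0.471, adjusted p = 0.99997 for both). The interval of Msx1 was -0.32 to 0.37 although its arrays lay close together, because limma weighs its own spread with that of all genes.

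Atoh8 was the only 1 of the 9 genes higher in the mutant on both arrays. Its probe (chr6:72156816-72156875) was at 8.29 for mutant RNA and 7.92 for control RNA on array 1 and at 8.41 and 8.15 on array 2. Both mutant pools were above both control pools, a separation whose share over all genes was not counted. The ratios were 0.37 and 0.26, a mean of 0.31 ± 0.08 or 1.24-fold, with an SD over spots of 0.046 and 0.120. Atoh8 missed the threshold in limma (unadjusted p = 0.0701, adjusted p = 0.99997, 95% interval -0.03 to 0.66). Among all genes 22.1% were higher on both arrays, and 93.95% had a lower mean ratio than Atoh8.

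**Figure D3:**
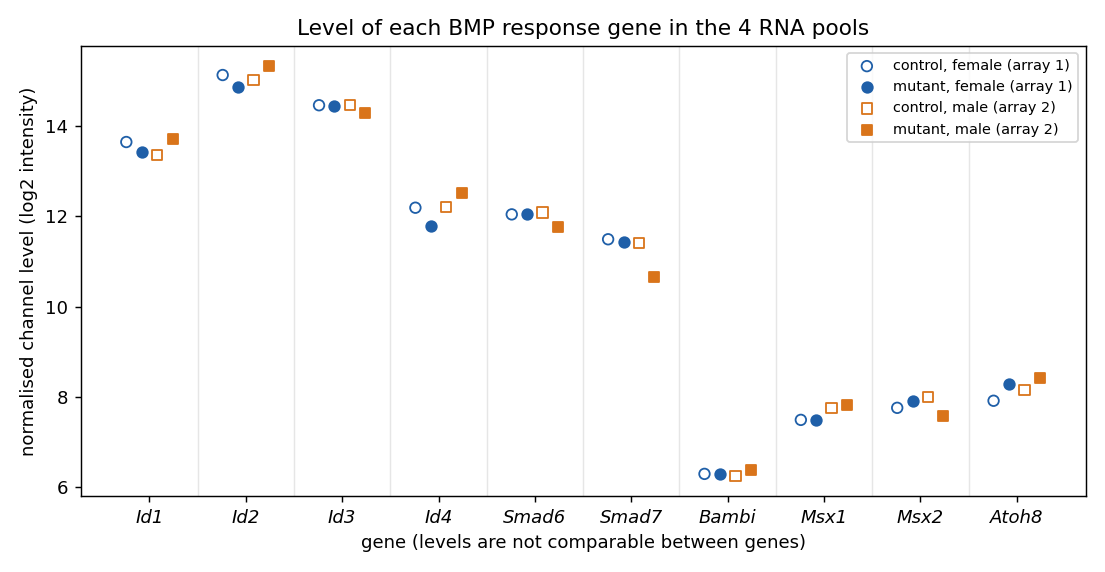
Normalised log2 level of each probe in the 4 pools, with open symbols for control, filled for mutant, circles for array 1 (female) and squares for array 2 (male). The filled square of Smad7 stands apart at 10.65 from the other 3 pools at 11.41 to 11.49, and for Atoh8 both filled symbols lie above both open ones.

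Counted as a list, limma called 0 of the 9 genes at the adjusted threshold of 0.05 (0.0287% of all genes did), and 0 of 9 had an unadjusted p under 0.05 (4.04% of all genes). On both arrays 1 of 9 was higher, against 22.1% of all genes, and 2 of 9 were lower, Id3 and Smad7, against 21.4%. The other 6 had opposite signs, against 56.5% of all genes: Id1, Id2, Id4 and Msx1 were lower on array 1 and higher on array 2 (28.7% of all genes), and Smad6 and Msx2 the reverse (27.8%). The median of the 9 means was -0.05, beside 0.0044 over all genes, with -0.02 on array 1 and 0.06 on array 2. Fitted probe by probe over 27474 probes, 0 of the 9 probes were called, where 0.0218% of all probes were.

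Loess and median centring differed by unequal amounts on the arrays for Id1, Id2 and Id3, and by similar amounts on both for Id4, Smad6 and Smad7. Loess, which fits the ratio against brightness, placed Id2 on array 2 at 0.41 above its value after median centring, Id3 at 0.33 and Id1 at 0.25 above. On array 1 the same shift was -0.04, 0.01 and 0.08 for these genes. For Id4 the shift was 0.16 on array 1 and 0.17 on array 2. For Smad6 and Smad7 the shifts were 0.15 and 0.16 on array 1 and 0.15 and 0.11 on array 2, and for Msx1, Msx2 and Atoh8 they stayed between -0.01 and 0.06. After median centring, Id2 was lower on both arrays, at -0.23 and -0.10, and Id3 at -0.03 and -0.51. With that scaling 4 of the 9 genes were lower on both arrays, against 38.1% of all genes, and 1 was higher, against 15.5%. Id1 and Id4 kept opposite signs, at -0.30 and 0.12, and at -0.56 and 0.13.

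**Figure D4:**
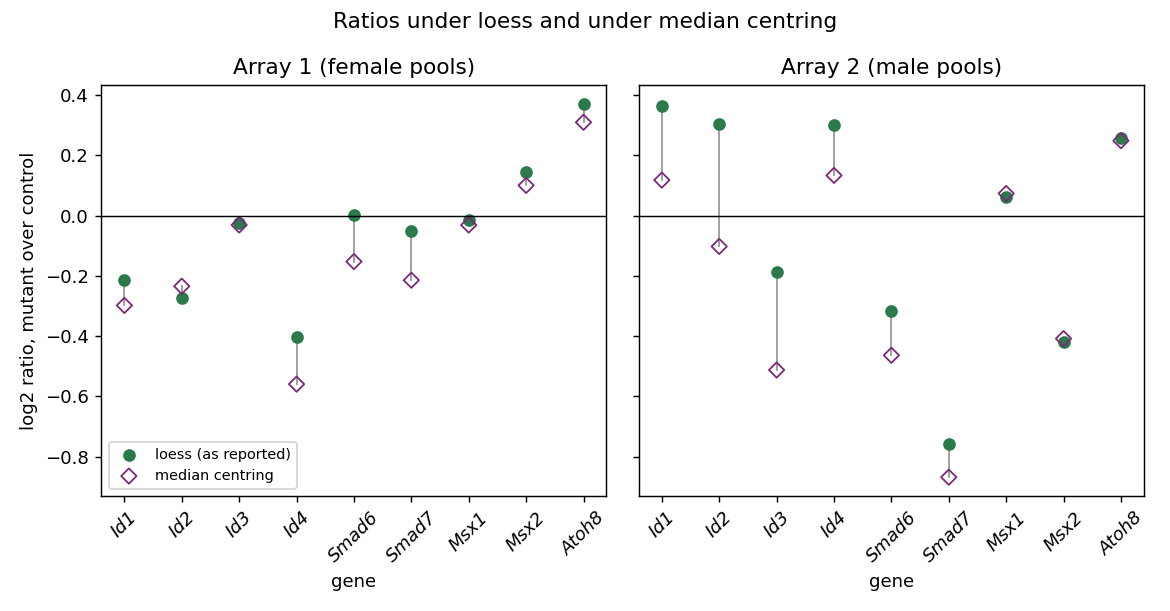
Log2 mutant over control of the 9 genes tested on array 1 (left) and array 2 (right) after loess (filled circles) and after median centring (open diamonds), joined by a line. The longest lines are those of Id2, Id3 and Id1 on array 2, where loess lies 0.41, 0.33 and 0.25 above median centring.

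The other genes of the pathway were read from a list of 47, of which 46 were tested and Runx2 was not. None passed an adjusted p of 0.05, and 7 of 46 had an unadjusted p under 0.05, against 4.04% of all genes. On both arrays 16 of 46 were lower (21.4% of all genes) and 9 higher (22.1%), with a median of -0.04. After median centring 25 were lower, where 38.1% of all genes were, and 4 higher, where 15.5% were. Among 9 ligands, Gdf5, a BMP-family ligand of joint development, was at 0.91 and 0.89 with its brighter probe and at 0.45 and 0.25 with the other (unadjusted p = 0.000412 and adjusted p = 0.352 in limma for the brighter). It was the only pathway gene at least 1.5-fold different the same way on both arrays, as were 0.392% of all genes. Bmp4, the mesenchymal ligand, was at 14.30 for mutant RNA and 14.34 for control RNA on array 1 and at 14.26 and 14.71 on array 2, and Bmp7 had ratios of -0.52 and -0.54.

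Among 9 antagonists, 3 were higher and 1 lower on both arrays. Sostdc1, which binds BMPs outside the cell, was at -0.42 and -0.26, Fst, better known as the activin binder follistatin, at 0.03 and -0.52, and Chrdl1, a chordin relative, at 0.03 and 0.41 with its brightest probe. A dimmer tested probe of Chrdl1 gave 0.11 and 0.02. Of 10 receptors, read from their brightest probes, 5 were lower and 0 higher on both arrays. Bmpr2, the type II BMP receptor, was at -0.19 and -0.86, with the male mutant pool the lowest of the 4. Bmpr1b was at -0.33 and -0.58, but its dimmer probe was at -0.28 and 0.31. Acvr2b, a type II receptor shared with activins, was at -0.26 and -0.32, and its dimmer probe at 0.16 and -0.23. Acvr1 was at -0.03 and -0.21, but its dimmer probes were at 0.14 and 0.02, and at 0.04 and 0.0034. Acvr2a was at -0.07 and -0.28, but its dimmer probe was at -0.36 and 0.53.

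The transducers included no gene beyond 0.29 in mean ratio. Smad1 was at 0.12 and -0.09, Smad4 at 0.13 and -0.11 and Smad5 at 0.0033 and 0.05 with their brightest probes. The other probes gave 0.06 and 0.19, and -0.08 and -0.17, for Smad1, -0.33 and 0.33 for Smad4, and -0.10 and -0.18 for Smad5, so the probes of each gene disagreed in sign. Smad9, which is itself raised by BMP in some tissues, was at -0.17 and -0.37. The co-repressor gene Ski was at -0.07 and -0.50 and Zfp423, a zinc finger partner of SMADs, at -0.19 and -0.38 with its brightest probe. The other 2 probes of Zfp423 gave 0.11 and -0.52, and -0.08 and -0.09. Of 6 other responsive genes tested, 4 were lower on both arrays: Gata3 at -0.30 and -0.62, Tbx3 at -0.37 and -0.50, Tbx2 at -0.05 and -0.67, and Gata2 at -0.28 and -0.38. These are transcription factor genes, and Gata3 also marks the ureteric epithelium.

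The partners of ID proteins, the E protein genes Tcf3, Tcf4 and Tcf12, had probes that disagreed. The brightest probe of Tcf3 was at -0.33 and 0.49 and that of Tcf4 at -0.27 and 0.14, the same signs as Id1, Id2 and Id4. Their other probes were at 0.15 and -0.01, and at 0.09 and -0.33. Tcf12 was at 0.11 and 0.27 with its brightest probe and at -0.08 and -0.86 with the other. No probe of the 3 genes had an unadjusted p under 0.05 in limma.

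**Figure D5:**
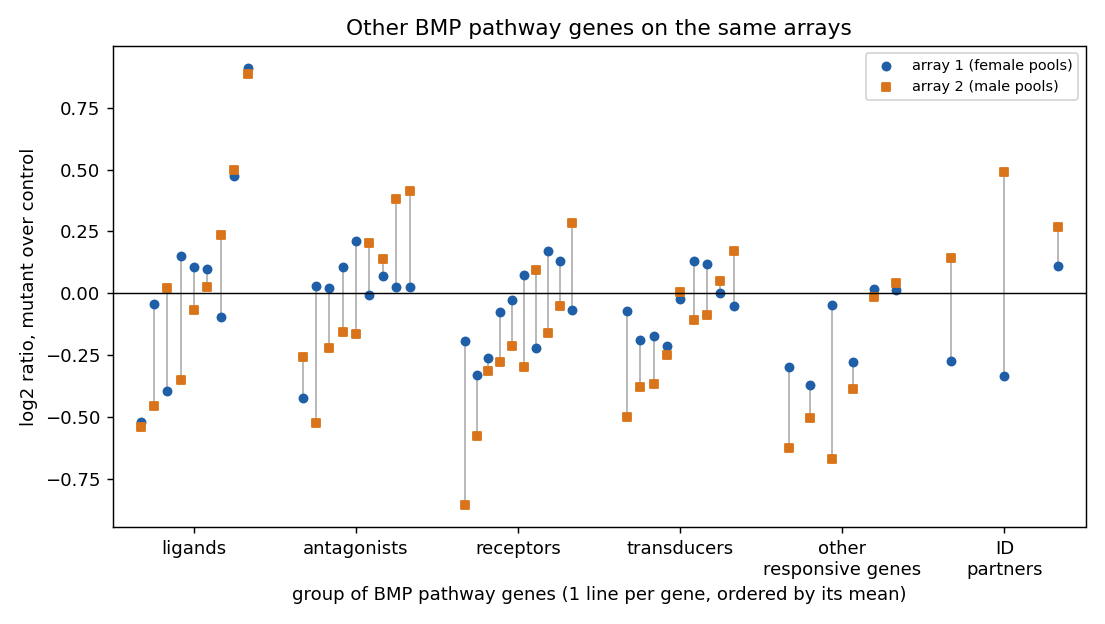
Log2 mutant over control of the 46 other pathway genes tested, 1 line per gene joining array 1 (circles) to array 2 (squares), grouped by role. The signs were opposite in 21 of the 46 genes, against 56.5% of all genes tested. Gdf5 at far right of the ligands lies near 0.9 on both arrays. Read from their brightest probes, 5 of 10 receptors lie below 0 on both.

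Markers of the cells a dissected ureter can hold were read on the same arrays, and fewer cells of a type and less RNA per cell cannot be told apart in such pools. Endothelial cells are known to express Id1, Smad6 and Smad7. All 10 endothelial markers were tested, and on both arrays 5 were higher and 2 were lower. Their median was 0.02 and their summed log2 level 13.95 to 13.996 in mutant and 13.91 to 13.94 in control pools. Cldn5, a tight junction gene of endothelium, was at 0.62 and 0.54, and Erg, an endothelial transcription factor, at -0.25 and -0.34. Of 12 markers of the ureteric epithelium, 5 were lower and 2 higher on both arrays, among them Shh at -0.63 and -0.45 and Upk1b at 0.49 and 0.54, and the summed level was 16.26 to 16.38 in mutant and 16.53 to 16.62 in control pools. Of 10 markers of ureteric mesenchyme and smooth muscle, 4 were lower and 3 higher, with Foxf1 at -0.64 and -0.81 and Acta2 at 0.99 and 0.17, and summed levels of 15.10 to 15.27 and 15.29 to 15.49. All epithelial and mesenchymal markers were bright enough to be tested, but Upk1b was dim. Its levels were 7.09 and 7.16 in the mutant pools and 6.60 and 6.62 in the control pools of arrays 1 and 2. No marker of any list was called in limma.

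More markers of other cells were higher than lower in the mutant on both arrays, with 0 called. Of 10 leukocyte markers 8 were higher on both arrays, with Csf1r at 0.77 and 0.77 with its brightest probe and Tyrobp at 0.64 and 0.88, and the summed level was 15.18 to 16.03 in mutant and 14.92 to 15.32 in control pools. The other 2 probes of Csf1r gave 0.34 and 0.38, and 0.15 and 0.07. Of 10 erythroid markers 8 were higher, with Hba-a1 at 1.32 and 0.48, and the summed level was 18.68 to 18.87 against 17.48 to 18.36. The brightest Hbb-y probe gave 1.64 and 0.12. Of 8 skeletal muscle markers 6 were tested, Myf5 and Ckm being too dim, and 5 were higher, with Myh3 at 0.56 and 1.47 and Myog at 0.88 and 0.84. Their summed level was 11.32 to 11.49 against 10.38 to 10.82. All 8 nerve and neural crest markers were higher on both arrays, with Sox10 at 0.08 and 1.22, Stmn2 at 0.68 and 0.26 and summed levels of 16.00 to 16.02 against 15.83 to 15.85. Their part in the ratios of the BMP response genes was not tested.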

How the data were processed

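Each array was labelled from 150 ng of total RNA, per the labels' protocols, and the submitters' processing notes name Agilent Feature Extraction 10.7.3.1. Mean and local background signals are deposited intensity values without normalisation, and the processed signals had background subtracted and dyes normalised, per the file headers. A table deposited by the authors holds a score per probe, a signed fold with a median of 1 per array, whose steps and centring stay unknown here. Its correlation with the processed signals, turned to mutant over control, was 0.973 and 0.991.

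Normexp with an offset of 50 was used for background and loess within each array for normalisation, with a span of 0.3, giving control spots no weight, using R 4.3.3 and limma 3.58.1. Spots with an outlier mark (3.35% and 3.05%) were dropped before averaging by probe. A probe was tested if a share above 0.5 of its spots was well above background in the mutant channels or in the control channels of both arrays. A gene was read from its brightest tested probe, named through RefSeq accessions where they matched (28328 probes). Ratios were fitted with lmFit and eBayes (1 residual and 6.30 prior degrees of freedom) and Benjamini-Hochberg adjustment. Channel levels are log2 values after Aquantile normalisation, and a summed level is log2 of the sum with the offset subtracted.

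The members and lists were chosen with earlier results of these data known. The text names all member probes, the targeted genes, per pathway group the genes called or at least 1.5-fold different the same way on both arrays (otherwise the 3 with the largest mean ratio), the ID partners and 2 markers per list. Bmp4, Bmp7, Acvr1, Acvr2a, Smad1, Smad4, Smad5, Gata2, Xist, Ddx3y and Eif2s3y fall outside that rule.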

Additional observations from a re-analysis of the deposited data

Results flagged for a closer look

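The male and female arrays gave opposite signs for 6 of the 9 BMP response genes tested, and for 56.5% of all genes. The ratio on array 1 minus that on array 2 was -0.578 for Id1, -0.578 for Id2, -0.706 for Id4, 0.318 for Smad6, -0.076 for Msx1 and 0.562 for Msx2. For Smad6 and Msx1 the ratio on array 1 was 0.0018 and -0.01, less than the SD over the spots of the probe (0.030 and 0.073). With 1 array per sex there is no replicate within a sex, so the difference between sexes was not tested. The limma fit of the unturned ratios, whose residual is the mutant effect and is small in genes picked for opposite signs, gave unadjusted p from 0.0299 for Id4 to 0.731 for Msx1 and adjusted p from 0.747 to 0.931, so none of the 6 passed. The sexes also differed in dye orientation, and the parts of sex, dye and array in these differences cannot be told apart.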

How the results depend on the processing

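In 11 alternatives, each with a fit over all genes, no BMP response gene and none of their probes was called (lowest adjusted p = 0.860 in limma). The mean ratios of 7 of the 9 genes kept their sign in all 11. Each gene had 1 probe, so changed filters, averaging over probes, the eBayes trend and 4 separate channels could not alter its mean. Id1 turned to -0.090 after median centring, and Id2 to -0.17 after median centring and to -0.00049 with the processed signals. The median of the 9 genes was -0.17 after median centring, where the medians over all genes were -0.06 on array 1 and -0.08 on array 2. That of the 9 genes was -0.024 to 0.063 after loess on 1 array alone, without replicate 2 or 1. Pathway genes lower on both arrays numbered 25 and higher 4 after median centring. On 1 array alone, 25 to 28 were lower and 18 to 21 higher. The number of genes called, 6, became 0 after median centring, without the filter on dim probes, with 4 separate channels and, as added after seeing the data, with array 2 left unturned (850, 1076, 663 and 985 genes at an unadjusted p under 0.05). It became 10 without background subtraction, 11 with the processed signals, with a filter that asked for signal in both groups and with outlier spots kept, and 14 with an offset of 10 or an eBayes trend. The cause of these changes was not tested. The ratios pair mutant and control within each array. The fit of 4 separate channels keeps that pairing as an estimated correlation between the channels of an array. Precision is limited by the number of arrays.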

Other observations

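Beside Smad7, several BMP pathway genes had a ratio on array 2 below that on array 1. They were picked after their values were seen, and so support nothing. Bmpr2 was at -0.19 and -0.86, Tbx2 at -0.05 and -0.67, Fst at 0.03 and -0.52, Ski at -0.07 and -0.50 and Bmp4 at -0.04 and -0.46. In Bmpr2, Tbx2, Fst and Ski the mutant male pool was the lowest of the 4 pools. For Bmp4 the control male pool stood apart as high, at 14.71 against 14.26 to 14.34 in the other pools. The ratios of array 2 had a wider spread over all genes, with an SD of 0.325 against 0.208 on array 1.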
